A study of Mus musculus with 14 samples.

Results

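The BCL2 family of apoptosis regulators was examined in germinal centre B cells of mice that carried 2, 1 or 0 floxed alleles of Crebbp. The family was given as 10 genes, and its members were all probe sets whose annotation names one of these genes alone. Of the 10 genes 8 had such a probe set, Bcl2, Bcl2l1, Mcl1, Bak1, Bid, Bmf, Bcl2l11 and Bbc3, with 29 probe sets among the 34945 single-gene probe sets of the array. Bax was not named in the probe annotation used here, and Bcl2a1b shared its probe sets with other Bcl2a1 genes, so neither has a value of its own. All 8 genes had at least 1 probe set above the median level of the array, a log2 intensity of 6.43, and were among the 10225 genes tested. Of the 29 probe sets 25 lay above that level.

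Apoptosis through mitochondria is set by 3 classes of BCL2 proteins. Pro-survival proteins hold back the effectors BAX and BAK, which otherwise open the outer mitochondrial membrane and release cytochrome c. BH3-only proteins transmit stress and loss of survival signals by binding the pro-survival proteins or the effectors. Germinal centre B cells are prone to apoptosis. They keep Bcl2 low, since the repressor BCL6 acts on that gene, and depend on MCL1 for survival.

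Knockout mice (KO) had the genotype Crebbp fl/fl with Cg1-Cre and 2 floxed alleles (n = 5, 3 males). Heterozygous mice (HET) were Crebbp fl/+ with Cg1-Cre and had 1 floxed allele (n = 5, 2 males), and wild-type mice (WT) were Crebbp +/+ with Cg1-Cre and had 0 (n = 4, 1 male). All were C57BL/6x129Sv and 8 to 12 weeks old, were immunised on days 0 and 5 with red blood cells of sheep, and were killed on day 12. The Cre transgene acts in activated B cells, so cells that escaped recombination may remain in a sort, and all groups carried it. Splenic cells sorted as B220+CD95+PNA+ from each mouse were measured on 1 Affymetrix array per mouse, and the number of arrays limits the precision. The labels call CREBBP loss conditional, and the study compares the genotypes to ask how loss of this acetyltransferase changes transcription in these cells.

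Crebbp, the targeted gene, differed by -0.86 to -0.30 log2 units between KO and WT over its 4 probe sets, and on 3 of them all KO arrays lay below all WT arrays. Its brightest probe set had log2 intensities of 12.12, 12.05, 11.71, 12.15 and 12.18 in KO mice 1 to 5. It had 12.25, 12.10, 12.15, 12.43 and 12.40 in HET mice 1 to 5 and 12.42, 12.40, 12.36 and 12.44 in WT mice 1 to 4. Of 7 germinal centre markers with a probe set 6 lay above the median level. Of plasma cell markers 5 of 6 and of naive or follicular B cell markers 3 of 4 also lay above it. Markers of cells outside the B lineage were mostly below it, with 2 of 7 T cell, 2 of 7 macrophage or dendritic cell, 2 of 4 neutrophil, 1 of 4 NK cell and 0 of 4 erythroid genes above. The genes Cd3d, Cd4, Csf1r, Itgam, Ncr1 and Hba-a1 were among those below. Those above were Cd3e, Cd8a, Lyz2, Cd68, S100a8, S100a9 and Prf1, with means from 6.47 for Cd3e to 9.32 for Prf1. The mean log2 level of the 4 NK cell genes varied widely between arrays. It was 5.45 to 7.72 in KO mice, 5.34 to 7.23 in HET mice and 5.42 to 7.75 in WT mice. KO 3 resembled the other arrays least, with a median correlation of 0.979, against 0.984 to 0.990 for the 13 others.

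The promoters of Bmf, Bid and Bcl2 are shown because the transcripts of the first pair had the lowest p-values of the family in KO against WT, and the Bcl2 result depended on 1 KO mouse. CREBBP was named for its binding to CREB, a factor that binds the cAMP response element. Capitals mark the core of that element, TGACG or its reverse complement CGTCA. Each window holds 250 bases before and 50 after a RefSeq transcript start on GRCm38.p6, read 5′ to 3′ on the strand of the gene.
Bmf, chr2:118549637-118549936, minus strand: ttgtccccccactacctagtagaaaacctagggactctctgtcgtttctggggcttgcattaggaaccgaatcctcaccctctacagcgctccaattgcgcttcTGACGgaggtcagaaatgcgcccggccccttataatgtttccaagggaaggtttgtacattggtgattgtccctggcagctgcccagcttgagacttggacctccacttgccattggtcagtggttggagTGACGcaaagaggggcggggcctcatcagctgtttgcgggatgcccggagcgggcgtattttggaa
Bid, chr6:120916775-120917074, minus strand: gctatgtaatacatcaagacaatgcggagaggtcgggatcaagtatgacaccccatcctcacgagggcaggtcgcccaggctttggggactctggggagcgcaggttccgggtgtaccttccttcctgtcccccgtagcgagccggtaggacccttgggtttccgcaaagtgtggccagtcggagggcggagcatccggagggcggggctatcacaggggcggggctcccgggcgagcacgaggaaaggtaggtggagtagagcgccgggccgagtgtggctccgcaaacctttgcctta
Bcl2, chr1:106714241-106714540, minus strand: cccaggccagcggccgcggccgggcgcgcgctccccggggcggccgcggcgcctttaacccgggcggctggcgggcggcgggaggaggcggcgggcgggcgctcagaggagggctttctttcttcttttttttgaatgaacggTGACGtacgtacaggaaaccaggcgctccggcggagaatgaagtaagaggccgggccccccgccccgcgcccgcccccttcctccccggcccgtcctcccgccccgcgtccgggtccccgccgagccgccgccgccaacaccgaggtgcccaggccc
The Bmf window, which belongs to 1 of 3 starts listed for the gene, holds the core at 146 and at 16 bases before the start. The windows at the other Bmf starts do not hold the core. The Bcl2 window holds it at 107 bases before the start, and in the Bid window these letters do not occur. RefSeq windows were found for all 10 family genes, 17 in all, and 5 of the 17 hold the core, 1 each for Bcl2, Mcl1, Bcl2a1b, Bmf and Bbc3. Of all 32851 windows 20.8% hold it. The full element TGACGTCA is in 0 of the 17 and in 1.79% of all windows. A match describes letters only, and no binding was measured.

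Among the 3 tested pro-survival genes, KO and WT cells had overlapping levels and no gene passed the test. Bcl2a1b, also pro-survival, was measured only by probe sets shared with other Bcl2a1 genes. On the brightest of these all KO mice lay below all WT mice. The difference was -0.36 (SE 0.09), which did not pass over probe sets (limma adjusted p = 0.0989). Bcl2, whose product guards mitochondria in resting lymphocytes, had log2 intensities of 7.13, 7.02, 7.13, 6.43 and 7.01 in KO mice 1 to 5. It had 6.67, 6.93, 6.95, 6.55 and 6.67 in HET mice and 6.77, 6.70, 6.66 and 6.73 in WT mice. Of the 5 KO mice 4 thus lay above every WT mouse, and KO 4 lay below every one of them.

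The mean level of Bcl2 was 6.94 ± 0.29 in KO (SD, n = 5), 6.75 ± 0.18 in HET (SD, n = 5) and 6.72 ± 0.05 in WT (SD, n = 4). The difference between KO and WT was 0.22 (SE 0.14, 95% interval -0.08 to 0.53) in a limma fit with sex as a covariate, with adjusted p = 0.568 over the tested genes. Whether it passed depended on KO 4, since without that array the difference was 0.42 (adjusted p = 0.0313). Without KO 3 it was 0.15 (adjusted p = 0.719), and in females alone it was 0.07 (adjusted p = 0.911). The adjusted p without any 1 array ran up to 0.789. The 3 other Bcl2 probe sets above the median level gave 0.38, 0.46 and 0.37, with limma adjusted p from 0.592 to 0.748 over probe sets. KO 3 was the highest of all 14 arrays on each of the 4.

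Markers of naive or follicular B cells, which are outside the germinal centre and are known to carry more Bcl2, varied between the same arrays. Their mean log2 level, over 4 genes, was 8.45, 8.33, 8.84, 7.71 and 8.19 in KO mice 1 to 5. It was 7.83 to 8.80 in HET mice and 8.41 to 8.60 in WT mice. KO 4 was thus lowest and KO 3 highest in both measures among KO mice, and the part of these cells in the Bcl2 values was not tested. In sorted bulk RNA, a different number of cells of one type and a different amount of RNA per cell cannot be told apart.

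Bcl2l1, which encodes BCL-XL, had 8.16 to 8.40 in KO mice, 8.15 to 8.33 in HET mice and 8.10 to 8.32 in WT mice. KO minus WT was 0.07 (SE 0.07, 95% interval -0.08 to 0.23, limma adjusted p = 0.791). The ranges of the 3 groups nearly coincide. Mcl1, on which germinal centre B cells depend, varied least when the brightest probe sets of the genes are compared. It had 13.02 to 13.11 in KO mice, 13.05 to 13.10 in HET mice and 13.02 to 13.10 in WT mice. KO minus WT was 0.02 (SE 0.05, adjusted p = 0.955) on this brightest probe set, where the 95% interval of -0.09 to 0.12 leaves out a change of 0.2 log2 units. The 5 other Mcl1 probe sets differed by -0.11 to 0.06. The lowest of these, at -0.11, had a wider SE of 0.10, so a change of that size in Mcl1 RNA is not excluded.

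Of the effectors, Bak1 had an estimate near 0. Its product forms pores in the outer mitochondrial membrane. Log2 intensities were 10.37 to 10.72 in KO mice, 10.30 to 10.67 in HET mice and 10.51 to 10.69 in WT mice. KO minus WT was 0.03 (SE 0.09, 95% interval -0.16 to 0.21, limma adjusted p = 0.956). The dimmer Bak1 probe set differed by -0.06.

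**Figure D1:**
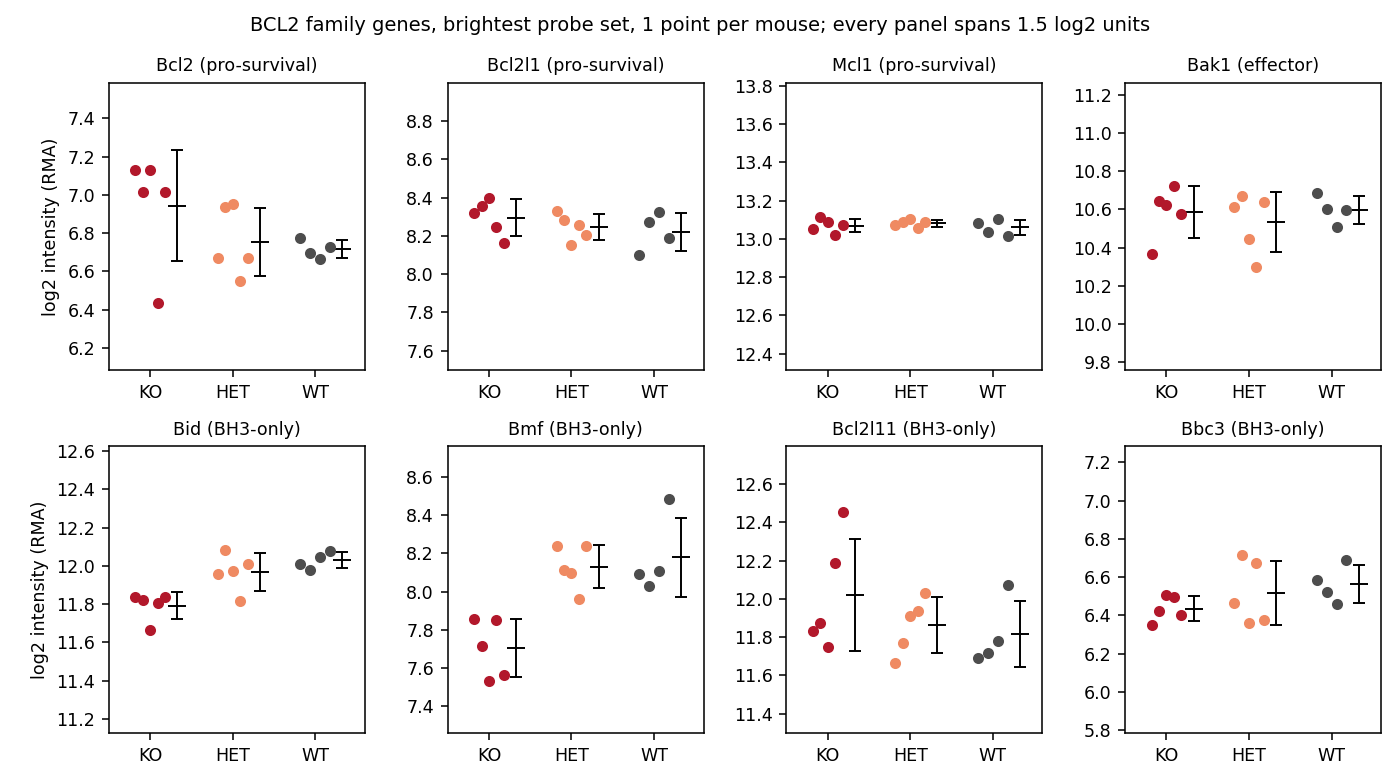
Log2 intensity of the brightest probe set of each of the 8 measured BCL2 family genes, 1 point per mouse in KO (n = 5), HET (n = 5) and WT (n = 4), with mean and SD beside the points; every panel spans the same 1.5 log2 units. In the Bmf and Bid panels all KO points lie below all WT points, while Mcl1 is nearly flat and KO mice spread widely for Bcl2 and Bcl2l11.

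The BH3-only genes did not move together. Bmf fell in KO cells, Bid had a smaller negative difference that missed the threshold, Bbc3 a smaller one still, and Bcl2l11 a positive one. Of the 8 tested family genes 1, Bmf, was called in KO against WT, where 2.44% of all tested genes were called and 1.26% of all tested genes were called lower. It ranked at position 154 of 10225 by p.

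Bmf encodes a BH3-only protein that is held at the cytoskeleton by dynein light chains and freed by stress. Its brightest probe set had log2 intensities of 7.86, 7.72, 7.53, 7.85 and 7.56 in KO mice 1 to 5. It had 8.24, 8.11, 8.10, 7.96 and 8.24 in HET mice and 8.09, 8.03, 8.11 and 8.49 in WT mice. Every KO mouse lay below every HET mouse and every WT mouse, and HET and WT mice overlapped.

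The mean level of Bmf was 7.71 ± 0.15 in KO (SD, n = 5), 8.13 ± 0.11 in HET (SD, n = 5) and 8.18 ± 0.21 in WT (SD, n = 4). Bmf fell by 0.50 in KO against WT (SE 0.11, a fold of 0.705), with a 95% interval from -0.73 to -0.27 and limma adjusted p = 0.0254. HET minus WT was -0.06 (SE 0.10, 95% interval -0.28 to 0.16, limma adjusted p = 1.00). KO minus HET was -0.44 (SE 0.10, 95% interval -0.65 to -0.23), which did not pass over all genes (limma adjusted p = 0.106).

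The Bmf call was narrow, and WT 4, the only male WT mouse and the highest of all arrays for Bmf, carried part of it. Leaving out 1 array at a time kept the call in 9 of 14 fits, with adjusted p from 0.0147 to 0.135. Without WT 4 the difference was -0.36 (adjusted p = 0.135). The call was also lost without WT 1, WT 3, KO 2 or KO 3 (adjusted p = 0.0523, 0.0594, 0.0511 and 0.062), with differences from -0.52 to -0.46. A mean over all probe sets of the gene gave -0.30 (adjusted p = 0.051), and a fit of KO and WT arrays alone gave -0.53 (adjusted p = 0.068). Without KO 3 and WT 4 together, an alternative chosen after seeing the data, it was -0.26 (adjusted p = 0.279), and in females alone it was -0.38 (adjusted p = 0.171). The sign was negative in all of these fits.

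Bmf has 2 further probe sets. The one above the median level had 7.03, 7.52, 7.59, 7.45 and 7.48 in KO mice 1 to 5. It had 7.30 to 7.68 in HET mice and 7.37 to 7.91 in WT mice. These ranges overlap, and KO minus WT was -0.22 (SE 0.14, limma adjusted p = 0.757 over 22518 probe sets). Over the 14 arrays it correlated with the brightest Bmf probe set at r = 0.04. Agreement between bright probe sets of 1 gene varied over the family. It was -0.25 for Bcl2l1, -0.61 to 0.87 for Mcl1, -0.015 to 0.90 for Bid, 0.52 for Bak1, 0.48 to 0.84 for Bcl2l11 and 0.67 to 0.84 for Bcl2. The dimmest Bmf probe set, with a mean of 5.39, differed by -0.19. All 3 estimates were negative, and the probe sets differed in whether KO and WT arrays were separate.

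**Figure D2:**
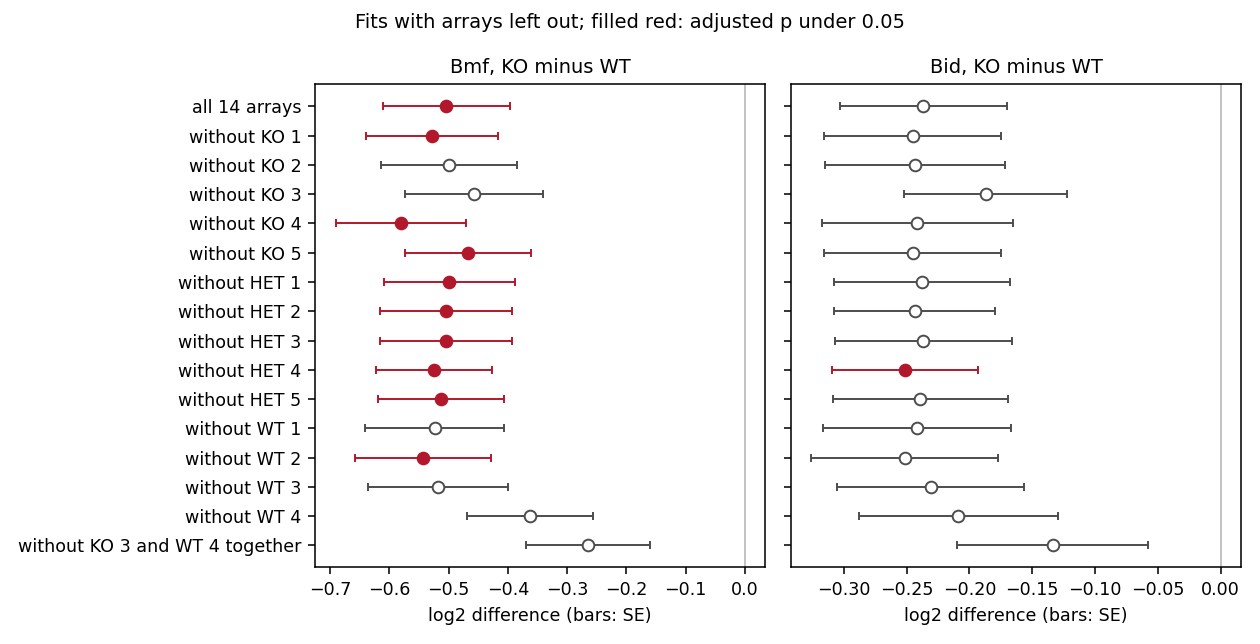
KO minus WT log2 difference with its SE for Bmf and Bid, in the fit of all 14 arrays, in each fit without 1 array and in the fit without KO 3 and WT 4; filled red points have an adjusted p under 0.05. Bmf stays negative throughout, is called in 9 of the 14 fits that leave out 1 array and is nearest to 0 without KO 3 and WT 4, at -0.26.

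Bid links death receptors to mitochondria, since caspase-8 cuts its product into an active form. Its brightest probe set had log2 intensities of 11.84, 11.82, 11.66, 11.80 and 11.84 in KO mice 1 to 5. It had 11.96, 12.09, 11.97, 11.82 and 12.01 in HET mice and 12.01, 11.98, 12.05 and 12.08 in WT mice. All KO mice lay below all WT mice, and HET 4 reached into the KO range.

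Mean Bid levels were 11.79 ± 0.07 in KO (SD, n = 5), 11.97 ± 0.10 in HET (SD, n = 5) and 12.03 ± 0.04 in WT (SD, n = 4). KO minus WT was -0.24 (SE 0.07, 95% interval -0.38 to -0.09), which did not pass over all genes (limma adjusted p = 0.0883). With 1 array left out adjusted p ran from 0.0445 to 0.259 and passed only without HET 4, and without KO 3 and WT 4 it was -0.13 (adjusted p = 0.453). The other 2 Bid probe sets gave -0.27 each, with KO arrays all below WT arrays on 1 of them. Bid and Bmf were the 2 of 8 family genes whose KO arrays all lay below the WT arrays, which held for 3.65% of all tested genes. Bmf alone had all KO arrays below all HET arrays, which held for 0.822% of tested genes.

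Bcl2l11 encodes BIM, a BH3-only protein that removes B cells after antigen receptor signals or loss of survival signals. It had log2 intensities of 11.83, 11.87, 11.75, 12.19 and 12.45 in KO mice 1 to 5. It had 11.66 to 12.03 in HET mice and 11.69 to 12.07 in WT mice. KO 4 and KO 5 were the 2 highest of all arrays, and the other 3 KO mice lay within the WT range. KO minus WT was 0.18 (SE 0.14, 95% interval -0.13 to 0.49, limma adjusted p = 0.713). The 4 other probe sets gave 0.18, 0.32, 0.05 and 0.47, with adjusted p from 0.598 to 0.985 over probe sets, and KO 5 was the highest of all arrays on each of the 5.

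Bbc3 encodes PUMA, a BH3-only protein induced by p53, and its only probe set, with a mean of 6.50, lay close to the median level of the array. It had 6.35 to 6.50 in KO mice, 6.36 to 6.72 in HET mice and 6.46 to 6.69 in WT mice. KO minus WT was -0.14 (SE 0.09, 95% interval -0.33 to 0.05, limma adjusted p = 0.578). The 3 ranges overlap.

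**Figure D3:**
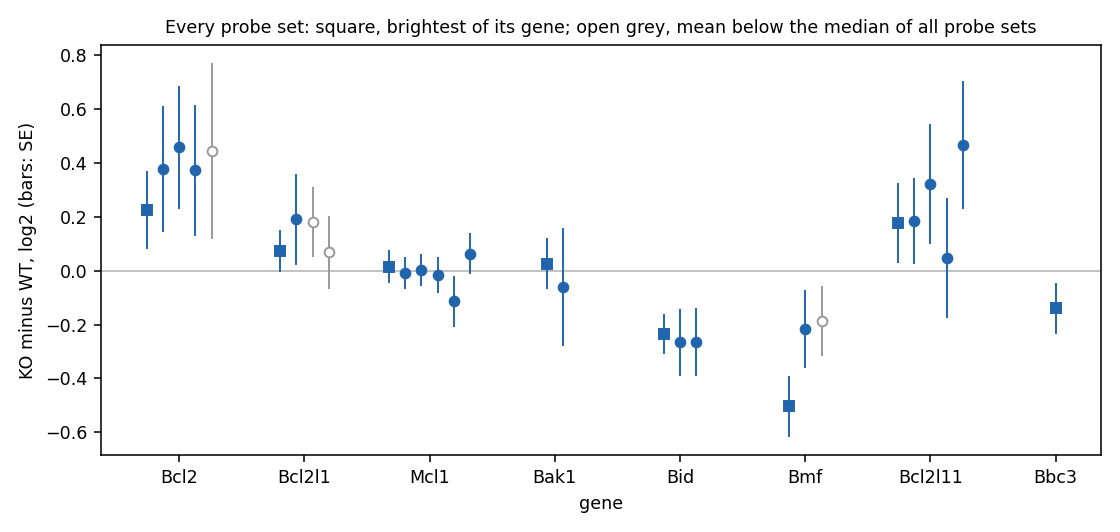
KO minus WT log2 difference with its SE for all 29 probe sets of the 8 genes; squares mark the brightest probe set of a gene and open grey circles the 4 whose mean lies below the median of all probe sets. All 5 Bcl2 and all 5 Bcl2l11 estimates are above 0, all 3 Bid and all 3 Bmf estimates are below 0, and the 6 of Mcl1 lie between -0.11 and 0.06.

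In the fit of single probe sets, limma called 0 of the 25 bright family probe sets in KO against WT, where 0.813% of all probe sets were called. At an unadjusted p under 0.05 there were 2, the brightest of Bmf and of Bid, with adjusted p of 0.0607 and 0.221. In that fit KO arrays all lay below WT arrays for 3 of the 25, 2 of Bid and 1 of Bmf, against 2.68% of all probe sets.

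Heterozygous cells gave no call in the family, and 0% of all tested genes were called in HET against WT by limma, with 280 at an unadjusted p under 0.05, of which 0 were in the family. The 8 differences had a median size of 0.04 in HET against WT and 0.16 in KO against WT, where the same median over all genes was 0.06 and 0.08. Both comparisons share the WT arrays. For Bid the HET difference was -0.06 (SE 0.06), and for Bcl2 it was 0.04 (SE 0.14). In KO against HET 0.264% of all genes and 0 family genes were called, with Bmf and Bid at an unadjusted p under 0.05. The change per floxed allele, a straight line through the groups, was called for 3.04% of all genes and for Bmf alone in the family. For Bmf it was -0.26 (SE 0.06, limma adjusted p = 0.0328), and the call was kept in 9 of 14 fits with 1 array fewer. The Bmf steps were unequal, with HET minus WT at -0.06 and KO minus HET at -0.44, so the slope is not the change at each allele. This Bmf call was lost with array weights (-0.16, adjusted p = 0.258), in females alone (-0.17, adjusted p = 0.328), with no filter on the mean (adjusted p = 0.0572) and with KO and WT arrays alone (adjusted p = 0.068). For Bid the value was -0.12 per allele (SE 0.03, adjusted p = 0.0686), which did not pass.

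**Figure D4:**
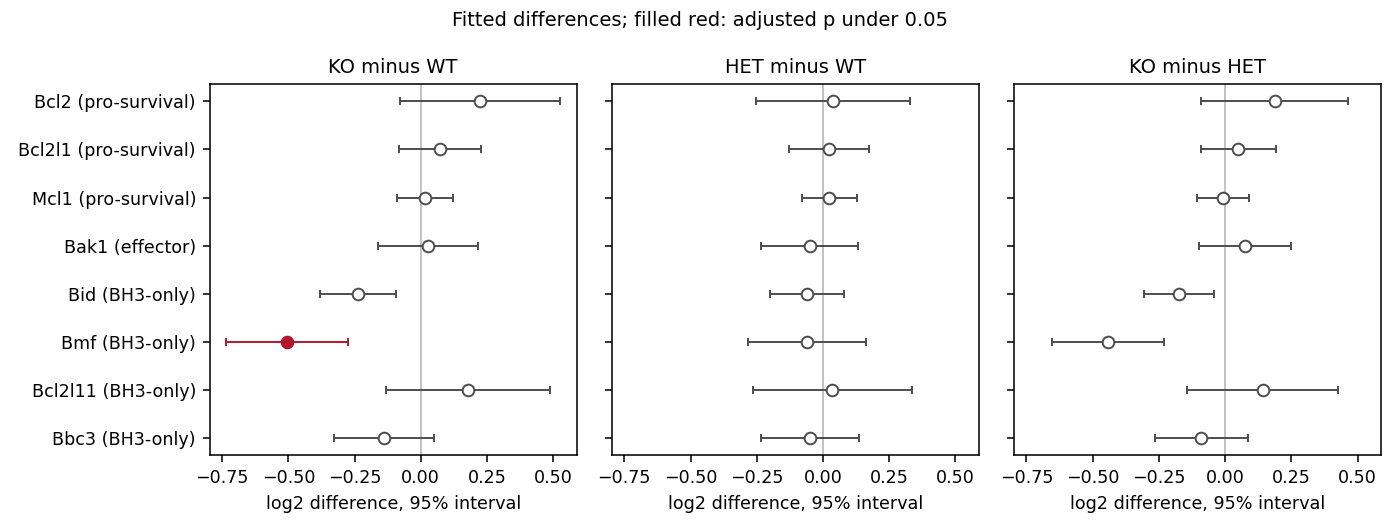
Fitted log2 differences with 95% intervals for the 8 genes in KO minus WT, HET minus WT and KO minus HET; filled red marks an adjusted p under 0.05. Bmf in KO minus WT is the only filled point, the Bid interval also lies below 0 there, and all 8 intervals of HET minus WT include 0.

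Pro-survival and BH3-only genes were also summarised per mouse, as the mean deviation of the tested genes of a class from their mean over the 14 arrays. The members were chosen with results of these data known, so these means carry no test. The pro-survival mean, over 3 genes, was 0.12, 0.12, 0.16, -0.15 and 0.04 in KO mice 1 to 5, -0.09 to 0.05 in HET mice and -0.07 to -0.02 in WT mice. All KO mice but KO 4 were above the WT range and KO 4 was below it. Of the 3 genes Bcl2 had the largest KO minus WT difference, 0.22, against 0.07 for Bcl2l1 and 0.02 for Mcl1. Bcl2a1b, also pro-survival, had no probe set of its own and is not in this mean. On the brightest probe set shared by Bcl2a1 genes all KO mice lay below all WT mice, at -0.36 (SE 0.09), which did not pass.

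The BH3-only mean, over 4 genes, was -0.11, -0.12, -0.22, 0.00 and -0.02 in KO mice 1 to 5. It was 0.00 to 0.09 in HET mice and 0.01, -0.02, 0.02 and 0.25 in WT mice. KO and WT mice overlap, and WT 4 stands above all others. The pro-survival mean minus the BH3-only mean averaged 0.15 ± 0.20 in KO (SD, n = 5), -0.06 ± 0.07 in HET (SD, n = 5) and -0.11 ± 0.14 in WT (SD, n = 4). KO minus WT of this difference was 0.26, and 0.19 to 0.34 when 1 array was left out. The Bcl2a1 genes are left out of it as well. The class means hide opposite signs within BH3-only genes, where Bcl2l11 was positive in KO against WT and the other 3 negative.

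**Figure D5:**
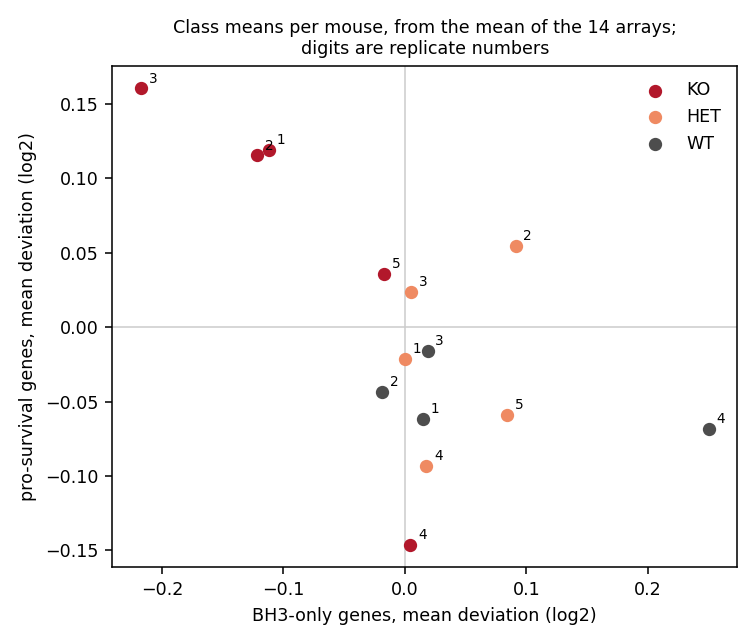
Mean deviation in log2 units of the 4 BH3-only genes (horizontal) and the 3 pro-survival genes (vertical) for each mouse, coloured by KO, HET or WT, with the replicate number beside each point. KO 1, KO 2 and KO 3 lie at the upper left, KO 4 at the lowest pro-survival mean of -0.15, and WT 4 at the highest BH3-only mean of 0.25.

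Light zone markers, genes of germinal centre B cells that are being selected, had a lower mean level in KO than in WT mice, as did Bmf and Bid. Their mean log2 level, over 8 genes, was 10.70 to 10.92 in KO mice, 10.88 to 11.07 in HET mice and 11.04 to 11.12 in WT mice, so that all KO mice lay below all WT mice. All 7 tested markers were negative in KO against WT, with a median of -0.20, 4 of them at an unadjusted p under 0.05, which held for 13.1% of all tested genes, and 0 called by limma. The markers differed in size, with Cd83 at -0.02 (SE 0.06) and Cd86 at -0.14 (SE 0.12), against -0.40 for Egr2 (SE 0.12). Per floxed allele 1 of the 7 was called, Slamf1, at -0.15 (SE 0.04, limma adjusted p = 0.043). In the germinal centre list Rgs13, a regulator of G protein signalling, fell by 0.62 in KO against WT (SE 0.12, limma adjusted p = 0.018), and in the plasma cell list Sdc1, which encodes syndecan-1, rose by 0.81 (SE 0.19, adjusted p = 0.0404). Each was the only called gene of its list in that comparison. Of the 5 tested plasma cell markers 4 were negative, with a median of -0.15, and Sdc1 was the positive one. Of the 6 tested germinal centre markers 4 were negative and 2 positive. Dark zone markers overlapped between KO mice, at 11.94 to 12.15, and WT mice, at 12.03 to 12.15. The part of these markers in the family's values was not tested.

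Beyond the 10 genes, the pathway was described with lists of related genes, of which 66 of 84 were tested. Limma called 0 of the 66 in KO against WT, HET against WT, KO against HET or per allele. At an unadjusted p under 0.05 there were 11 in KO against WT, 7 lower and 4 higher, which is 16.7% of the 66, against 13.1% of all tested genes. Of the 66 genes 31 had a positive and 35 a negative difference, with a median of -0.01, against -0.0027 over all tested genes. Among the remaining BCL2 proteins, Bcl2l2 was the only tested pro-survival gene, at 0.06 (SE 0.10). Bok was the only tested relative of the effectors, at 0.01 (SE 0.09). Of 2 tested BH3-only genes the lower p belonged to Bad, a gene whose product is controlled by phosphorylation, at 0.04 (SE 0.08). Bnip3, a distant member that acts in mitophagy, differed by 0.36 (SE 0.16, limma adjusted p = 0.366).

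Of 17 tested genes of the mitochondrial route and caspases, 9 were negative and 8 positive. The lowest p belonged to Casp6, an executioner caspase, with a mean of 8.78 ± 0.15 in KO (SD, n = 5) and 9.07 ± 0.13 in WT (SD, n = 4) and a difference of -0.31 (SE 0.09, limma adjusted p = 0.0985). In the death receptor list, 5 of 8 tested genes were negative, and the lowest p belonged to Traf1, a signalling adaptor induced by NF-kB, at -0.36 (SE 0.11, adjusted p = 0.115). Among partners and turnover factors of BCL2 proteins, 8 of 13 were positive. There Marchf5, a mitochondrial ubiquitin ligase, was at 0.20 (SE 0.08, adjusted p = 0.239). Of 19 tested transcription factors that control family genes 13 were negative, and the lowest p belonged to Nfkb2, an NF-kB subunit gene, at -0.35 (SE 0.10, adjusted p = 0.102). None of these 4 genes passed.

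The genes most like Bmf were taken as the 3 with the highest Pearson correlation over the 14 arrays after the group means were subtracted. They were Lyst at r = 0.86, Ndel1 at r = 0.86 and Tnip2 at r = 0.83. Their differences between KO and WT were -0.40, -0.04 and -0.24, and none passed (limma adjusted p = 0.144, 0.916 and 0.478). Arrays share processing and normalisation, so a correlation between probe sets describes these 14 arrays only. Within the family, the deviations of Bmf correlated most with those of Bid, at r = 0.55.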

How the data were processed

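Gene expression was measured in sorted germinal centre B cells of 14 mice, 1 array per mouse, and the groups were taken from the sample labels. The authors deposited log2 intensities for 45101 probe sets. RMA is named in the submitters' processing notes, without a version. RMA normalises by quantiles, so a shift of most genes would not be seen, and it compresses differences of dim probe sets. No detection calls were used here.

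Probe sets were named from the platform annotation, 34945 with a single gene and 932 with several, and 9211 were unnamed here. Of the probe sets with a single gene 34741 matched RefSeq by gene identifier, with 0 symbols changed. The brightest single-gene probe set stood for each gene, and genes above 6.43, which is the median over 45037 probe sets without controls, entered the tests (10225 genes). A further fit covered probe sets, with p-values adjusted over the 22518 above that level. Linear models of group plus sex were fitted to the 14 arrays with limma 3.58.1 (R 4.3.3), with moderated variances, Benjamini-Hochberg adjustment and a threshold of 0.05, and were tested on simulated data. With 1 array per mouse, p-values weigh a group difference against the spread between mice, as moderated by limma.

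The family and the gene lists were chosen with earlier results of these data known. The text names all family genes, Crebbp, from each pathway list the genes past the threshold plus the one with the lowest p in KO against WT, and the 3 genes most like each called family gene. Other genes are named as markers. Alternatives covered the filter, the use of several probe sets, normalisation, sex, the arrays and groups in the fit, the variance model, the replicate number as a block and the threshold. Any 2 arrays had at most 58 equal values. Nothing says that same-numbered mice were paired.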

Additional observations from a re-analysis of the deposited data

Results flagged for a closer look

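Single arrays that stood apart from the others of their group were looked for in the 29 probe sets and the 3 class measures, in 96 groups of 4 or 5 arrays, and 14 were found, where chance gives about 1 in 20. By Dixon's ratio of the gap to the range, KO 4 was low on the brightest Bcl2 probe set (6.43, the other KO arrays 7.01 to 7.13). On other Bcl2 probe sets HET 4 was low (5.83, others 6.70 to 6.97) and HET 2 high (6.90, others 6.23 to 6.39). On 1 Mcl1 probe set HET 3 was low (12.05, others 12.21 to 12.27).

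KO 3 was low on 2 Bid probe sets (11.66, others 11.80 to 11.84, and 8.57, others 8.94 to 9.06), and WT 1 was low on the dimmest Bid probe set (6.94, others 7.21 to 7.25). Of the Bmf probe sets other than the brightest, KO 1 was low on 1 (7.03, others 7.45 to 7.59), and on the dimmest KO 2 was high (5.58, others 5.20 to 5.29) and HET 1 low (5.01, others 5.39 to 5.54). On Bcl2l11 probe sets HET 1 was low (10.93, others 11.22 to 11.23), WT 4 high (7.62, others 7.24 to 7.31) and KO 5 high (7.85, others 6.60 to 6.86). The BH3-only mean of WT 4 was high (0.25, the other WT arrays -0.02 to 0.02).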

How the results depend on the processing

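Of 848 recomputed family differences, 781 kept their sign and their side of the threshold. Only Bmf was called in the reported fits, in KO against WT and per allele, so most of the 781 stayed uncalled. In 21 of the 848 a reported call, always of Bmf, was lost. The Bmf call in KO against WT was lost with a mean over all probe sets (-0.30, adjusted p = 0.051), with females alone, with only the groups compared (adjusted p = 0.068) and without KO 3 and WT 4. A minimum mean of 8 removed Bmf from the tested genes. Family calls in KO against WT, 1 as reported, were 0 in these 5 settings and with the replicate block, 2 at a threshold of 0.10, and 0 to 2 without 1 array. Per allele they were 0 with no filter, the minimum of 8, females alone, only KO and WT, array weights, the replicate block or without KO 3 and WT 4, 2 with group alone, with limma's trend and robust options or at 0.10, and 0 to 2 without 1 array. In KO against HET 1 gene, Bmf, was called with repeated quantile normalisation or array weights.

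Over all genes, the 249 calls of KO against WT became 79 in females alone, 98 with only these groups, 424 at 0.10, 75 without KO 3 and WT 4 and 130 to 259 without 1 array. The 27 of KO against HET became 2 with no filter, 15 with the minimum of 8, 41 with median centring, 0 in females, 5 with only these groups, 72 with array weights, 16 with the replicate block, 48 at 0.10, 13 without KO 3 and WT 4 and 0 to 25 without 1 array. HET against WT gave 6 with array weights, 1 with the replicate block and 0 otherwise. The 311 per allele became 113, 98, 198, 508 and 85 (females, KO and WT only, array weights, 0.10, without KO 3 and WT 4) and 164 to 300 without 1 array. For probe sets, KO against WT called 183, but 277 with group alone, 36 without KO 3 and WT 4 and 79 to 196 without 1 array. KO against HET called 0 probe sets, 3 with group alone and 0 to 6 without 1 array, and HET against WT 0 to 1. The class difference ranged from 0.19 to 0.34. Beyond the settings' own smaller sets, the cause was not tested.

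Signs turned in 37 cases, none called. With a mean over all probe sets, KO minus WT was -0.0097 for Mcl1 and -0.017 for Bak1, HET minus WT was -0.11 for Bcl2 and 0.0029 for Bak1, KO minus HET was -0.020 for Bak1, and the values per allele were -0.0052 for Mcl1 and -0.0091 for Bak1. Median centring gave 0.0065 for Mcl1 in KO minus HET, and group alone gave -0.012 in KO minus WT and -0.0036 per allele for Bak1. Females alone gave -0.018 in KO minus WT and -0.0067 per allele for Mcl1, HET minus WT of -0.018 for Bcl2l1, 0.0089 for Bid and 0.075 for Bmf, and KO minus HET of -0.070 for Bcl2 and 0.017 for Bbc3. HET minus WT of Bmf was 0.055 with array weights, and that of Bcl2l11 was -0.035 with the replicate block. Without KO 3 and WT 4, KO minus WT was -0.0081 for Bcl2l1 and -0.013 for Mcl1, HET minus WT was -0.011 for Bcl2l1 and 0.088 for Bmf, and the values per allele were -0.0035 for Bcl2l1 and -0.0075 for Mcl1. Without 1 array, the ranges that cross 0 were -0.0099 to 0.070 (Bak1) and -0.0028 to 0.037 (Mcl1) in KO minus WT. In HET minus WT they were -0.11 to 0.0025 (Bbc3), -0.022 to 0.091 (Bcl2), -0.017 to 0.057 (Bcl2l1), -0.022 to 0.14 (Bcl2l11) and -0.10 to 0.060 (Bmf). In KO minus HET they were -0.021 to 0.011 (Mcl1), and per allele -0.0027 to 0.041 (Bak1) and -0.0028 to 0.019 (Mcl1). The replicate block gave -0.47 for Bmf in KO minus WT (adjusted p = 0.0962). The labels give no pairing. For that reason the replicate numbers were not used as pairs in the reported fits. Of 13 same-numbered pairs of arrays 9 had deviations correlated above 0.1 and 4 did not (-0.17 to 0.38). Of 14 arrays 8 correlated best with an array of their own number among the other groups. Whether same-numbered arrays shared a source of variation was not tested. Few arrays limit all of these values.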

Other observations

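Bcl2a1 genes encode A1, a pro-survival protein induced by NF-kB in activated B cells. Its probe sets here are annotated to several Bcl2a1 genes. The brightest shared probe set, annotated to Bcl2a1a, Bcl2a1b and Bcl2a1d together, had log2 intensities of 12.38, 12.66, 12.52, 12.58 and 12.41 in KO mice 1 to 5. It had 12.84, 12.83, 12.84, 12.49 and 12.72 in HET mice and 12.88, 12.94, 12.84 and 12.93 in WT mice. All KO mice lay below all WT mice, and HET 4 lay among the KO mice.

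KO minus WT of this probe set was -0.36 (SE 0.09), with limma adjusted p = 0.0989 over probe sets, which did not pass. HET minus WT was -0.15 (SE 0.09) and KO minus HET was -0.22 (SE 0.08). A dimmer shared probe set differed by -0.24 (SE 0.17) between KO and WT, with overlapping groups, and a last one had a mean of 3.30, below the median level. The copies of Bcl2a1 are nearly identical, so these values cannot be assigned to 1 gene.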
